A study of Mus musculus with 6 samples.

Results

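The 42 genes described here encode nuclear subunits of mitochondrial respiratory complexes II to V and the electron carrier cytochrome c. They were listed by symbol and by what they encode, with earlier results of these data known, and are 42 of the 55401 gene identifiers counted in tibialis anterior (TA) muscle. All 42 had enough counts to be tested, among 17222 genes tested in all. There were 4 genes for complex II (succinate dehydrogenase), 9 for complex III (cytochrome bc1), 1 for cytochrome c, 13 for complex IV (cytochrome c oxidase) and 15 for complex V (ATP synthase).

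RNA was sequenced from the TA of C57BL/6 mice in which Bmal1, the core activator of the molecular clock, had been deleted from skeletal muscle (iMSBmal1-/-; genotype HSA-MCM-Bmal1-/-). The Cre recombinase was driven by the human skeletal actin promoter and switched on by tamoxifen, 2 mg per day for 5 days, in male mice of 12 to 16 weeks of age. The TA received adeno-associated virus (AAV) 4 weeks later and was collected 4 weeks after that, 8 weeks after tamoxifen. One group of 3 libraries came from muscle injected with AAV-GFP, the other group of 3 from muscle injected with AAV-RBM20, which carried mouse Rbm20 cDNA with an HA tag behind a CMV promoter. All 6 libraries therefore carry the knockout, with no library from Bmal1-intact muscle, and the comparison asks what added RBM20, a splicing regulator of titin, does to transcript levels in knockout muscle. The RBM20 vector was given at the higher dose, so transgene and vector dose cannot be told apart. The labels do not say that the 3 samples of a group came from separate animals, so p-values measure the spread between these samples. In the study's protein blots, some mice gave a GFP muscle from the right and an RBM20 muscle from the left. Whether the sequenced groups shared mice is not stated, and the main test treats the libraries as unpaired.

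In the inner mitochondrial membrane, complexes II and III pass electrons to ubiquinone and on to cytochrome c, complex IV reduces oxygen with them, and complex V uses the resulting proton gradient to make ATP. Complex II is encoded wholly in the nucleus, whereas complexes III, IV and V combine nuclear subunits with a few encoded by mitochondrial DNA. Several complex IV subunits exist as a form found in most tissues and a form of heart and skeletal muscle, and the c subunit of ATP synthase is encoded by several genes. The nuclear genes are classical targets of the transcription factors NRF1, GABPA and ERR and of their coactivator PGC-1alpha.

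The libraries held 41400132 to 54226618 counts. Levels are given as CPM, counts scaled to a common library size by the trimmed mean of M-values (TMM), and differences as log2 fold changes of AAV-RBM20 over AAV-GFP from the quasi-likelihood test of edgeR with their standard errors. Rbm20 itself was at 164 to 170.0 CPM with AAV-GFP and 406 to 545 CPM with AAV-RBM20, a log2 fold change of 1.54 ± 0.15 (SE, n = 3 per group) with an adjusted p of 0.121 by edgeR, 0.0107 when the replicate numbers formed a block. The 2 libraries numbered 3, one in each group, stood apart from the others. Ttn took 4.48% and 9.05% of their counts against 16.9% to 17.8% in the other 4 libraries, and genes of the mitochondrial chromosome took 12.5% and 11.4% against 6.41% to 7.66%. Some values are therefore also given without them, and the plot of log2 fold changes grouped by complex shows the 42 genes both ways. Values given in the text only with all 6 libraries could also move when both were left out. The log2 fold change of Uqcrb, for example, went from -0.26 to -0.12 and that of Uqcr11 from -0.20 to -0.06.

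No member differed between the groups at an adjusted p below 0.05 in the edgeR test, where 0 of 17222 genes, 0.0%, passed. At an unadjusted p below 0.05, 2 of 42 members were lower with AAV-RBM20, Atp5k and Cox6a2, beside 3.82% of all genes tested. None was higher, beside 4.08% of all genes. Leaving out 1 library changed the 2 to 1, in each case Atp5k, without AAV-GFP replicate 1 or AAV-RBM20 replicate 2. Beside these, 538 of 17813 and 351 of 17742 genes were lower. Without AAV-RBM20 replicate 1 the 2 became 0, beside 235 of 17676 genes lower. With DESeq2 in place of edgeR, 0 members and 72 genes passed the adjusted threshold. The same number of members, 2, lay below the unadjusted one, both lower, beside 726 of 29747 genes lower. The median log2 fold change of the 42 members was -0.10, with 31 members below 0 and 11 above, and it was 0.01 over all genes tested. The members' fold changes ran from -0.53 for Atp5k to 0.14 for Sdha. The 95% confidence interval lay within a 2.0-fold change either way for all 42 members and within a 1.5-fold change for 30 of them, so differences above 2.0-fold were outside the interval of every member.

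**Figure D1:**
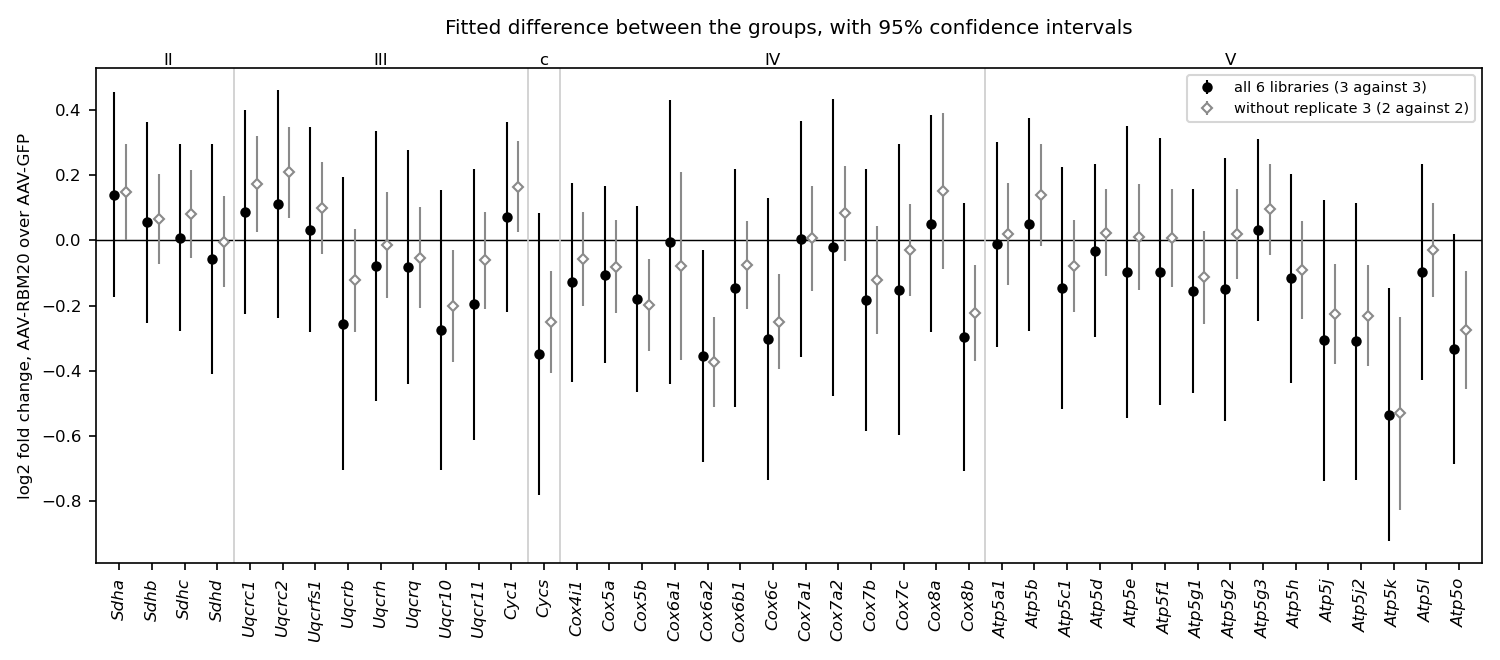
Log2 fold change of AAV-RBM20 over AAV-GFP (vertical axis) for the 42 genes, grouped by complex, with 95% confidence intervals from edgeR. Filled circles use all 6 libraries and open diamonds leave out both libraries numbered 3; the filled circles run from -0.53 (Atp5k) to 0.14 (Sdha), and 31 of 42 lie below 0.

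The complexes did not sit at the same place. The median log2 fold change was 0.03 for complex II, where 3 of 4 genes were above 0, and -0.08 for complex III, where 5 of 9 were below 0. It was -0.15 for complex IV, with 11 of 13 genes below 0, and -0.12 for complex V, with 13 of 15 below 0. Without the libraries numbered 3 the medians were 0.07, -0.01, -0.08 and -0.03 for complexes II, III, IV and V, and 10 of 13 genes of complex IV and 8 of 15 of complex V were below 0, so complexes IV and V lay nearer to 0. Whether one complex differed from another was not tested. Summed over the 42 genes, the level was 12408 to 14435 CPM with AAV-GFP and 12712 to 13008 CPM with AAV-RBM20, so the groups overlapped. In bulk muscle, fewer fibres of a type and less RNA per fibre cannot be told apart.

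The replicate numbers in the sample titles were shared by the groups. Deviations from the group means correlated between same-numbered libraries at 0.418, 0.201 and 0.484 for numbers 1, 2 and 3. AAV-GFP replicate 2, however, correlated at 0.216 with AAV-RBM20 replicate 1. The pairing was thus taken from these same data, and no label states it. With the number as a block, edgeR gave 25 genes past the adjusted threshold, 0.145% of those tested, and 0 of 42 members. At an unadjusted p below 0.05 the block left 9 members lower, 21.4% of them, beside 9.92% of all genes, and 0 higher, beside 8.92%. The 9 were Uqcr10, Cycs, Cox6a2, Cox6c, Cox8b, Atp5j, Atp5j2, Atp5k and Atp5o. Counting pairs directly, AAV-RBM20 was below AAV-GFP in all 3 same-numbered pairs for 19 members, 45.2% of them, beside 23.0% of all genes. It was above AAV-GFP in all 3 pairs for 2 members, Sdha and Sdhb, or 4.76%, beside 22.2% of all genes. Of the 19, 8 were in complex IV, 7 in complex V, 3 in complex III and 1 was Cycs, with none in complex II.

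**Figure D2:**
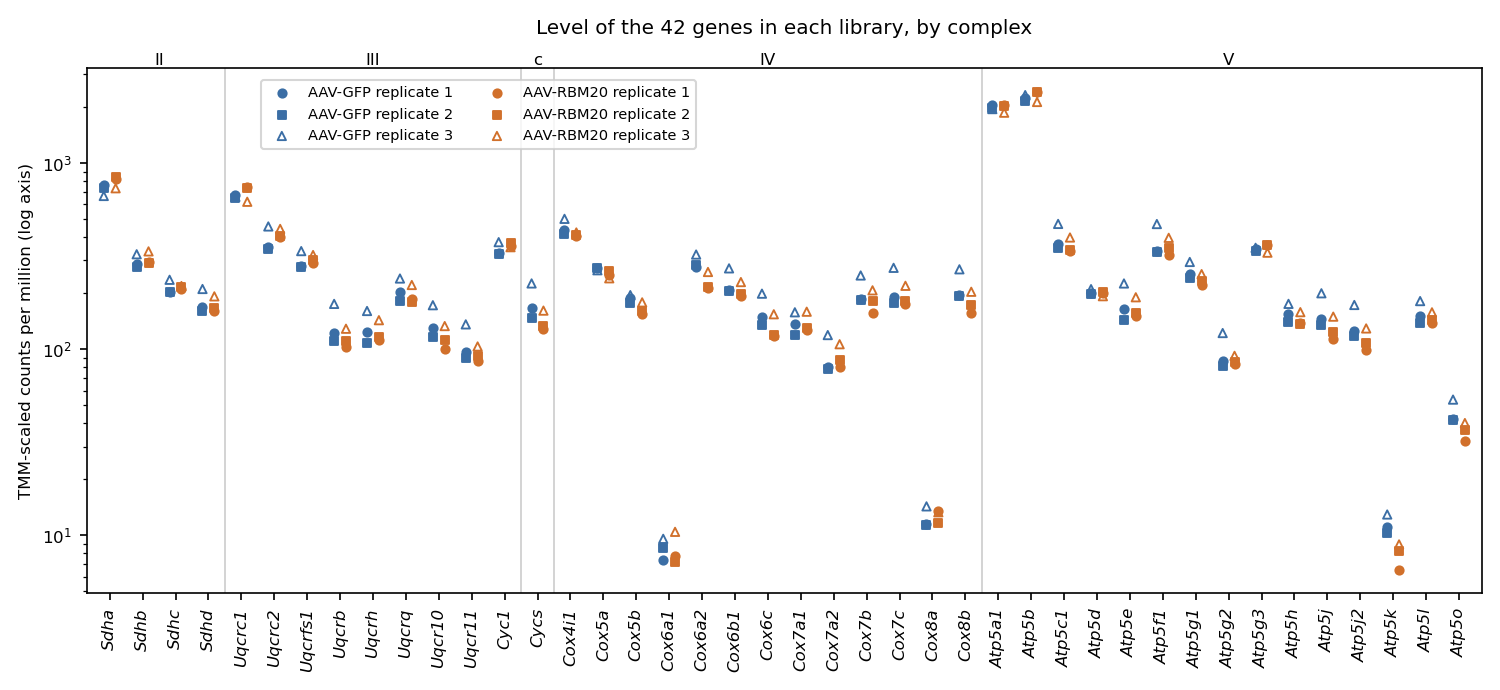
TMM-scaled CPM (log axis) of each of the 42 genes in each of the 6 libraries, grouped by complex, with AAV-GFP in blue and AAV-RBM20 in orange and one symbol per replicate number. The open triangles, the libraries numbered 3, are the highest of their group for 38 genes with AAV-GFP and 33 genes with AAV-RBM20.

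Within complex II, levels were close in the 2 groups. Sdha, the flavoprotein that oxidises succinate, was at 767, 738 and 666 CPM in AAV-GFP replicates 1 to 3 and at 819, 840.2 and 733 CPM in AAV-RBM20. This gave a log2 fold change of 0.14 ± 0.14 (SE, n = 3 per group, adjusted p = 0.766 by edgeR), the highest of all 42 members, and the groups overlapped. Sdhb, the iron-sulfur subunit, was at 286, 277 and 324 CPM against 294, 292 and 335 CPM. Both genes were above their same-numbered partner in each pair, while the ranges of the groups overlapped. Of the membrane anchors that bind ubiquinone, Sdhc had a log2 fold change of 0.01 and Sdhd of -0.06 ± 0.15 (SE), the lowest of the complex. Per kilobase of the principal annotated transcript, Sdhb had the highest level of the complex with AAV-GFP, 259 ± 21.7 CPM per kb (SD, n = 3). It was near the 249 ± 17.9 of Sdha and well above the 67.6 ± 5.95 of Sdhc. With all annotated exons merged the order changed, at 175 for Sdha, 146 for Sdhd and 132 for Sdhb.

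In complex III, the nuclear-encoded catalytic and core subunits lay above 0 and the small ones below. The log2 fold change was 0.09 for Uqcrc1 and 0.11 for Uqcrc2, the core proteins, 0.03 for Uqcrfs1, the Rieske iron-sulfur protein, and 0.07 for Cyc1, cytochrome c1. It was -0.26 for Uqcrb, -0.08 for Uqcrh, -0.08 for Uqcrq, -0.27 for Uqcr10 and -0.20 for Uqcr11, which are small subunits without a redox centre. No difference between these sets was tested, since the split was seen in the values. Uqcrc2 was at 356, 347 and 457 CPM with AAV-GFP and at 403, 405 and 443 CPM with AAV-RBM20, and the libraries numbered 3 were the highest of each group. Uqcr10 was at 129, 116 and 172 CPM with AAV-GFP and at 99.97, 112 and 133 CPM with AAV-RBM20, a log2 fold change of -0.27 ± 0.19 (SE, adjusted p = 0.688 by edgeR). Uqcrc1 had the highest level of the complex per kilobase of principal transcript, 399 ± 7.36 CPM per kb (SD, n = 3) with AAV-GFP. With all annotated exons merged, Uqcr10 was the highest at 238, and Uqcrc1 was at 159.5. Part of the exons of Uqcrc2, 504 bases, overlaps Pdzd9 on the opposite strand, and the strand setting of the counting was not stated. Of the 50-base stretches of Uqcrb, 43.4% also occur in transcripts of other genes.

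Cycs, which encodes the cytochrome c that carries electrons from complex III to IV, was at 166, 147 and 226 CPM with AAV-GFP and at 129, 134 and 161 CPM with AAV-RBM20. Each AAV-RBM20 library lay below its same-numbered partner, but the range of one group reached into the other. This gave a log2 fold change of -0.35 ± 0.19 (SE, n = 3 per group) and an adjusted p of 0.657 by edgeR, or 0.168 with the replicate block. Of the 50-base stretches of its transcript, 28.5% also occur in transcripts of other genes, so part of its reads may be shared.

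The largest group contrast in complex IV was that of Cox6a2, the heart and muscle form of subunit 6A. It was at 277, 284 and 323 CPM with AAV-GFP and at 214, 217 and 260.0 CPM with AAV-RBM20. Every AAV-RBM20 library was below every AAV-GFP library, and the mean level was 0.782 times that of AAV-GFP. The difference on the log2 scale was -0.35 ± 0.14 (SE), and its adjusted p was 0.618 by edgeR, or 0.137 with the replicate block. Without the libraries numbered 3 it was -0.37 with an adjusted p of 0.00901 by edgeR, the only one of 42 members to pass there, beside 690 of 17250 genes, 4.0%. Cox6a2 lies at chr7:128205435-128206387 (GRCm38, minus strand), and 70 of its exonic bases overlap Itgad on the other strand, a gene with 7 counts in all 6 libraries.

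The non-overlap of the groups was not frequent among the members. All AAV-RBM20 libraries were below all AAV-GFP libraries for 4 of 42 members, Cox5a, Cox6a2, Atp5k and Atp5o, or 9.52%, beside 9.04% of all genes tested. The reverse held for 0 members, beside 7.71% of all genes. Cox5a, a subunit of complex IV found in all tissues, was at 273, 273 and 266 CPM against 249, 264 and 240.5 CPM, so its ranges nearly touched. Its log2 difference was -0.11 ± 0.12 (SE).

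Other complex IV genes had log2 fold changes above that of Cox6a2, up to 0.05 for Cox8a. Cox8b, the muscle form of subunit 8, was at 195, 192 and 269 CPM with AAV-GFP and at 157, 173 and 204 CPM with AAV-RBM20. This gave -0.30 ± 0.18 on the log2 scale (SE, adjusted p = 0.660 by edgeR), and with AAV-GFP it had the highest level of the complex per kilobase, 607 ± 121 CPM per kb (SD, n = 3), beside 590 ± 59.3 for Cox4i1. Cox6c was at 148, 135 and 199 CPM against 118, 119 and 154 CPM, and 250 of its exonic bases overlap Vps13b. Cox7a1, the muscle form of subunit 7A, had a log2 fold change of 0.00 ± 0.16 (SE), and Cox4i1, the common form of subunit 4, of -0.13 ± 0.13. The highest fold change of the complex was that of Cox8a, 0.05 ± 0.14 (SE), at 11.4 to 14.3 CPM with AAV-GFP and 11.7 to 13.5 CPM with AAV-RBM20.

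To compare forms within a library, where scaling cancels, the common form was divided by the muscle form, and the groups were compared on log2 ratios by a two-sided exact permutation test, adjusted over the 6 ratios. With 3 against 3 libraries the test cannot go below 0.1. Cox6a1 over Cox6a2 was 0.0265, 0.0300 and 0.0297 with AAV-GFP and 0.0362, 0.0330 and 0.0401 with AAV-RBM20. Every AAV-RBM20 ratio was above every AAV-GFP ratio, by 0.34 on the log2 scale (exact permutation p = 0.1, adjusted p = 0.3). Cox8a over Cox8b was 0.0587, 0.0591 and 0.0532 with AAV-GFP and 0.0856, 0.0677 and 0.0653 with AAV-RBM20, also without overlap and also by 0.34 (exact permutation p = 0.1, adjusted p = 0.3), or by 0.22 without AAV-RBM20 replicate 1. In both pairs the muscle form remained the far more abundant one by counts. The third such pair, Cox7a2 over Cox7a1, was 0.589, 0.657 and 0.754 with AAV-GFP and 0.635, 0.674 and 0.669 with AAV-RBM20, a difference of -0.01 (exact permutation p = 1.0) whose sign changed with the library left out. Cox4i2 over Cox4i1, the hypoxia-associated over the common form, differed by -0.06 (exact permutation p = 0.7, adjusted p = 0.84), at ratios of 0.00243 to 0.00324, and by 0.025 without AAV-GFP replicate 2.

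**Figure D3:**
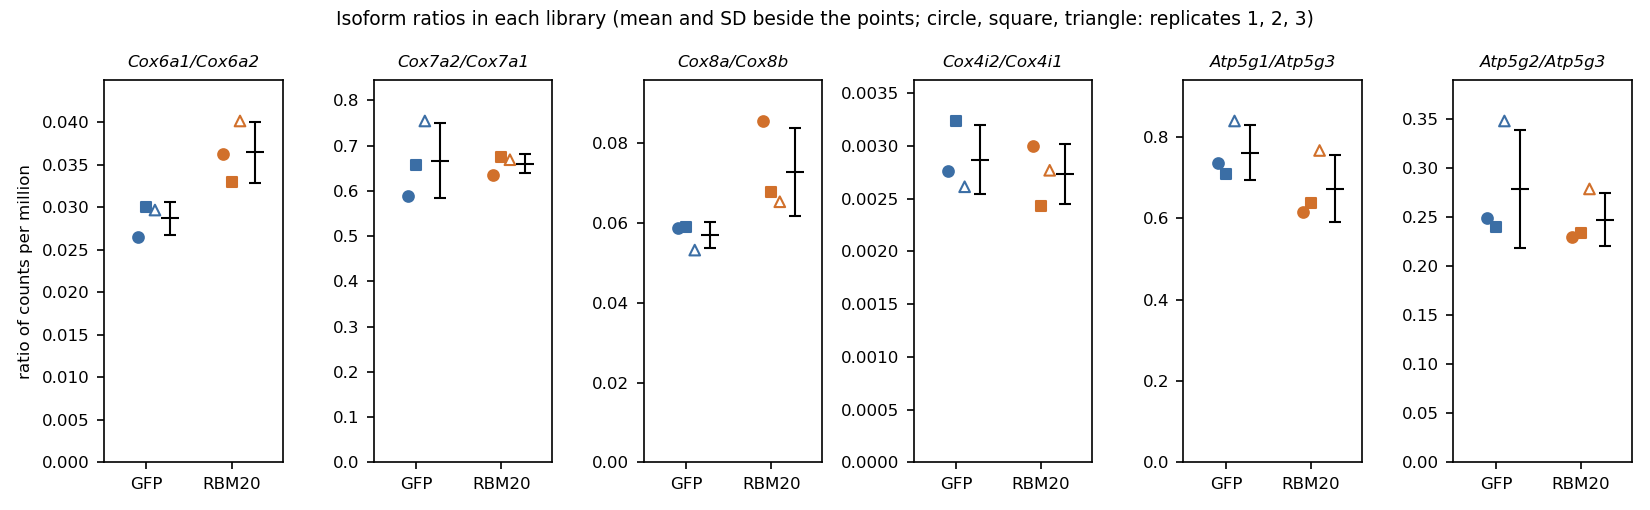
CPM of one gene over CPM of another within a library (vertical axes from 0), for 6 pairs of isoform genes, with the AAV-GFP libraries in blue, the AAV-RBM20 libraries in orange, and the mean with its SD (n = 3) in black. Cox6a1/Cox6a2 and Cox8a/Cox8b are the pairs whose groups do not overlap, each at a log2 difference of 0.34.

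The promoters of Cox8a and Cox8b differ in sequence, and those of the other isoform pairs were not compared. The 5 promoters shown belong to the contrasts above: those of Cycs, of Atp5k, of Cox6a1, and of both genes of the Cox8 pair. RefSeq promoter windows of 300 bases, from 250 before to 50 after the annotated start (GRCm38.p6), were at hand for 33 members. Those of Sdhc, Uqcrc2, Uqcrb, Uqcrq, Cyc1, Cox4i1, Cox6a2, Cox6c and Atp5a1 were not used here. The first 280 bases are printed 5′ to 3′ on the gene's own strand, and capitals mark matches, on either strand, to the NRF1 core GCGCATGC, the GABPA core CCGGAAG or the letters TATAAA of a TATA box. The windows lie on the minus strand at chr6:50566540-50566819 for Cycs, chr5:115348929-115349208 for Cox6a1, chr5:108434370-108434649 for Atp5k, chr19:7217587-7217866 for Cox8a and chr7:140900417-140900696 for Cox8b.
Cycs: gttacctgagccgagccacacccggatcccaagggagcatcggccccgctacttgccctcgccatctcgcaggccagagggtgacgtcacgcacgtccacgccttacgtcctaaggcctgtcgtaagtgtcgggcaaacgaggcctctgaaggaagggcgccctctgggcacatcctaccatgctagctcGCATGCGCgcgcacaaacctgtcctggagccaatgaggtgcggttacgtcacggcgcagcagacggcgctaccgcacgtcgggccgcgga
Cox6a1: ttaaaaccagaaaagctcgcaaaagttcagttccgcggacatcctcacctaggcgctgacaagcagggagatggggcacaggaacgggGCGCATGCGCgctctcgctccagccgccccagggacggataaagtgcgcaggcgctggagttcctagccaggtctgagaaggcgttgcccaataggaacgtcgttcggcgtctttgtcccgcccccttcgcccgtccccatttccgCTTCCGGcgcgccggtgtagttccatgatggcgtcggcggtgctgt
Atp5k: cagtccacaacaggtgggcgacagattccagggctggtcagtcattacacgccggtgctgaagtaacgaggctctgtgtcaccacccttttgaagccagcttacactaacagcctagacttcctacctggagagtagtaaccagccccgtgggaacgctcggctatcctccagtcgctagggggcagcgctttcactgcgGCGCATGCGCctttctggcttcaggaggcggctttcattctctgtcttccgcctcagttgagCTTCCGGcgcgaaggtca
Cox8a: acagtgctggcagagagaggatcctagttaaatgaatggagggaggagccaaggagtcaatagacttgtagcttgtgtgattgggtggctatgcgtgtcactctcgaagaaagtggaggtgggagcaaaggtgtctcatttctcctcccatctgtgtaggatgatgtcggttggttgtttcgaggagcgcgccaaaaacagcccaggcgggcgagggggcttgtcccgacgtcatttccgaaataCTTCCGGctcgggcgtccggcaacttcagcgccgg
Cox8b: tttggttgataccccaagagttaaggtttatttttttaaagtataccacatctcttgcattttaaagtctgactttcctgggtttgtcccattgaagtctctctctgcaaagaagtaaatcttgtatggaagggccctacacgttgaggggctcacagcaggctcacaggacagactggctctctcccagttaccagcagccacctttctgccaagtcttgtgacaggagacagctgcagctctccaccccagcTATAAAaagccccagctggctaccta

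Cox8a, the common form, held 19 CpG dinucleotides in its window and the GABPA core, with a second match just past the printed end, whereas Cox8b held 2 CpG and the letters TATAAA, which begin just past the annotated start. The NRF1 core was in the window of 8 of the 33 members, 24.2%, beside 3.05% of 27025 genes with a window. These were Sdhb, Uqcrc1, Uqcr11, Cycs, Cox6a1, Atp5g2, Atp5k and Atp5l. The GABPA core was in 12 of 33, 36.4%, beside 9.93% of all genes. The median window held 19 CpG for the members and 7 over all windows, the cores of NRF1 and GABPA both contain a CpG, and the part of CpG content in these shares was not tested. The YY1 core AAGATGGC was in 3 of 33, 9.09%, beside 3.19%. The ERR motif TCAAGGTCA was in Sdhd and Atp5g3, 2 of 33 or 6.06%, beside 0.466%. The E-box CACGTG, the letters that the clock factors BMAL1 and CLOCK recognise, was in Atp5f1, Atp5g1, Atp5g3 and Atp5l, 4 of 33 or 12.1%, beside 8.09%. TATAAA was in 2 of 33, Atp5l and Cox8b, beside 15.7% of all genes, and CTATTTTTA, a MEF2 core, in 0 of 33, beside 0.570%. The NRF1 core on the 2 strands overlaps itself where both matched, as in Cox6a1 and Atp5k, and all genes with a window include genes that do not encode proteins. A match is a description of letters in a window, and no binding was measured.

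In complex V, with all 6 libraries, the alpha, beta and delta subunits lay nearer to 0 than gamma and epsilon. Atp5b, the catalytic beta subunit, was at 2245, 2166 and 2320 CPM with AAV-GFP and at 2419, 2414 and 2131 CPM with AAV-RBM20, a log2 fold change of 0.05 ± 0.14 (SE), the highest of the complex. Per kilobase of principal transcript it also had the highest level of all 42 genes with AAV-GFP, 1171 ± 40.02 CPM per kb (SD, n = 3). The alpha subunit Atp5a1 followed at 808 ± 20.6, a gap larger than the spread between libraries. This order depends on the length used. With all annotated exons merged, Atp5a1 was the highest at 637, and Atp5b was at 529.6. The log2 fold change was -0.01 for Atp5a1, -0.15 for the gamma subunit Atp5c1, -0.03 for the delta subunit Atp5d and -0.10 for the epsilon subunit Atp5e. Without the libraries numbered 3 the order changed, with 0.01 for Atp5e, -0.08 for Atp5c1 and 0.14 for Atp5b, beside 0.02 for Atp5a1 and Atp5d. The grouping was seen in the values, and no difference between these subunits was tested.

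The lowest fold change of all 42 members was that of Atp5k, subunit e of the membrane part, which helps ATP synthase to form dimers. It was at 11.1, 10.2 and 12.9 CPM with AAV-GFP and at 6.54, 8.21 and 8.94 CPM with AAV-RBM20. The groups did not overlap, and the log2 difference of -0.53 ± 0.17 (SE, n = 3 per group) had an adjusted p of 0.618 by edgeR, 0.123 with the replicate block and 0.0551 without the libraries numbered 3. Atp5k lies at chr5:108433244-108434448 (GRCm38, minus strand). Its level was among the lowest of the members, beside Cox6a1 and Cox8a. The neighbouring membrane subunits had smaller values, -0.31 for Atp5j2 (subunit f) and -0.10 for Atp5l (subunit g). Of the 50-base stretches of Atp5l, 84.8% also occur in transcripts of other genes, so part of its reads may be shared.

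Of the peripheral stalk, which holds the head still, Atp5o (the oligomycin sensitivity-conferring protein) was at 42.2, 41.7 and 53.6 CPM with AAV-GFP and at 32.0, 37.0 and 40.1 CPM with AAV-RBM20. These ranges did not overlap, and the log2 difference was -0.33 ± 0.15 (SE, adjusted p = 0.641 by edgeR). A second identifier of that symbol shares 243 exonic bases with it and had 0 counts, so reads in the shared part may not have been counted. Of the 50-base stretches of Atp5o, 50.3% occur in other annotated genes, that identifier included, as do 50.5% of those of the stalk subunit Atp5h. The stalk subunit Atp5j was at -0.31 ± 0.19 (SE), with 397 exonic bases shared with Gabpa on the opposite strand, Atp5h at -0.12 and Atp5f1 at -0.10. The c ring is encoded by Atp5g1, Atp5g2 and Atp5g3, whose proteins are the same once the targeting sequence is removed. Their log2 fold changes were -0.16 ± 0.14, -0.15 ± 0.17 and 0.03 ± 0.12 (SE). Atp5g1 over Atp5g3 was 0.710 to 0.839 with AAV-GFP and 0.615 to 0.767 with AAV-RBM20, lower in 3 of 3 same-numbered pairs, by -0.18 on the log2 scale (exact permutation p = 0.3, adjusted p = 0.6). Atp5g2 over Atp5g3 differed by -0.16 (exact permutation p = 0.5, adjusted p = 0.75), or by 0.013 without AAV-GFP replicate 3, and 87.4% of the 50-base stretches of Atp5g2 occur in other annotated genes.

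Leaving out both libraries numbered 3 changed the count of members at an unadjusted p below 0.05 more than any other setting. With 2 against 2 libraries, 10 of 42 members, 23.8%, were lower at an unadjusted p below 0.05, beside 9.19% of all genes, and 3, or 7.14%, were higher, beside 9.34%. The median log2 fold change was -0.04, with 25 members below 0. The 3 higher ones were Uqcrc1, Uqcrc2 and Cyc1 of complex III, at 0.17, 0.21 and 0.16, and the 10 lower ones were the 9 found with the block together with Cox5b. Without AAV-GFP replicate 3 alone, the median was 0.01, with 20 of 42 members below 0, and no longer lay below that of all genes, 0.00614. Across settings Cox6a2 stayed between -0.44 and -0.29 and Atp5k between -0.62 and -0.41.

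The same libraries set the spread of the members. AAV-GFP replicate 3 was the highest of its group for 38 of 42 members, beside 45.5% of all genes tested, and AAV-RBM20 replicate 3 for 33 of 42, beside 40.4%. Both held for 33 of 42 members, beside 28.5% of all genes. The log2 ratio of replicate 3 to the mean of replicates 1 and 2 had a median of 0.33 over the members with AAV-GFP and 0.23 with AAV-RBM20, beside 0.03 and -0.00175 over all genes. It ran from -0.18 for Sdha to 0.59 for Uqcrb with AAV-GFP, and from -0.26 for Uqcrc1 to 0.49 for Cox6a1 with AAV-RBM20. Sdha, Uqcrc1, Cox5a and Atp5a1 were below 0 in both groups.

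**Figure D4:**
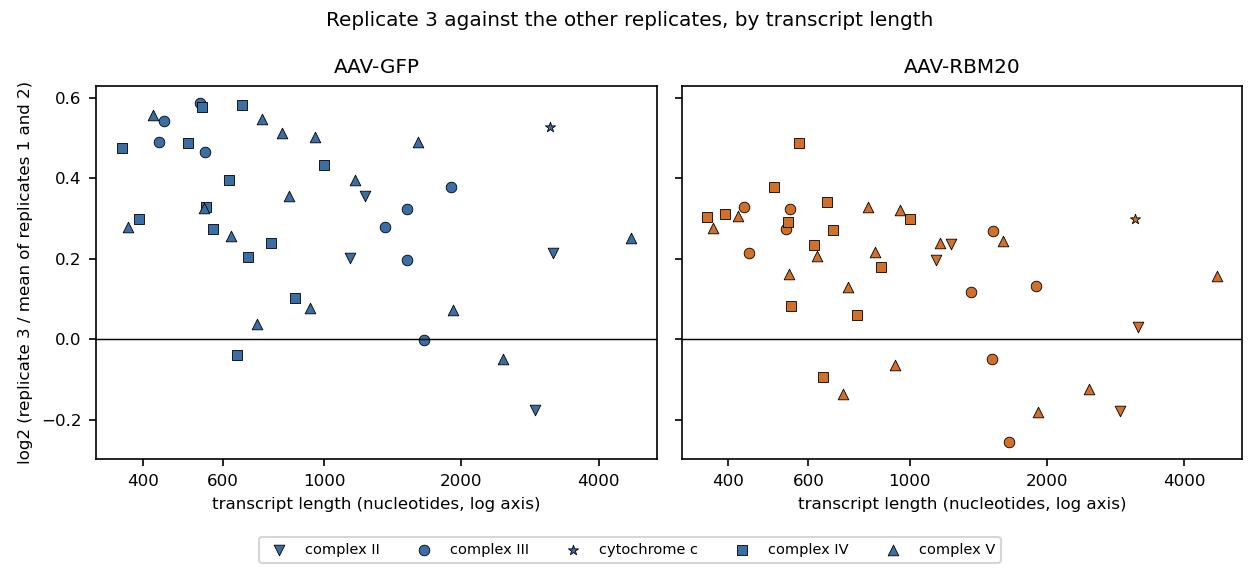
Log2 ratio of replicate 3 to the mean of replicates 1 and 2 (vertical axis) against transcript length in nucleotides (log axis) for the 42 genes, one panel per group and one symbol per complex. Most genes lie above 0, with medians of 0.33 (AAV-GFP) and 0.23 (AAV-RBM20), and r with log2 length is -0.41 and -0.47.

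Transcript length moved with these values. Of the members, 26 have a principal transcript under 1000 nucleotides, and their median log2 fold change was -0.15, beside -0.07 for all genes of that length. With both libraries numbered 3 left out these were -0.08 and -0.05. With all 6 libraries the median was 0.03 for 11 members from 1000 to under 2000 nucleotides and -0.01 for 5 members of 2000 or more, beside -0.03 and 0.03. In the short class, replicate 3 stood above the other replicates by a median of 0.37 with AAV-GFP and 0.27 with AAV-RBM20 on the log2 scale, beside 0.19 and 0.10 for all genes of that length. Over the 42 members, which share the same 6 libraries, Pearson's r of log2 length with the log2 fold change was 0.38, and with the replicate 3 ratio -0.41 with AAV-GFP and -0.47 with AAV-RBM20. The part of transcript length or of RNA quality in the differences between the groups was not tested. For Uqcrq, Atp5d, Atp5g1 and Atp5g2, transcripts with a consensus coding sequence (CCDS) differ by over 1.5 times in length, so their levels per kilobase are uncertain. So is their place in the length classes and in r. Atp5g1 was entered at 4715 nucleotides, with a shortest CCDS transcript of 596, and Uqcrq at 1521, with a shortest of 405. Other members are uncertain too where merged exons far exceed the principal transcript, as in Atp5l (6443 against 544 nucleotides) and Cox6c (3567 against 503).

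Genes around the 42 were described from lists, and no gene of the lists on mitochondria passed the adjusted threshold in the edgeR test. Of 36 nuclear complex I subunits, 32 were below 0, with a median log2 fold change of -0.19, from -0.48 for Ndufa13 to 0.20 for Ndufb2. Without the libraries numbered 3 the median was -0.12, with 29 below 0, and 3 of the 36 passed, Ndufa12, Ndufa13 and Ndufb7, all lower. In that fit 690 of 17250 genes, 4.0%, passed. The 6 mitochondrially encoded subunits of complexes III to V were all below 0, with a median of -0.48, from -0.82 for mt-Atp8, at under 1 CPM, to -0.17 for mt-Co1, and without the libraries numbered 3 the median was -0.35, with 2 of the 6, mt-Co2 and mt-Cytb, past the threshold. Of these, mt-Co2, a catalytic subunit of complex IV, was at 103, 122 and 187 CPM against 64.4, 72.5 and 115 CPM, with an adjusted p of 0.618 by edgeR and 0.0388 with the block.

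Assembly factors, which insert hemes and metals and join subunits, were below 0 for 30 of 37 genes tested. Their median was -0.15, from -0.45 for Sdhaf3 to 0.22 for Sco2, and -0.03 without the libraries numbered 3, with 22 of 37 below 0. All AAV-RBM20 libraries were below all AAV-GFP libraries for 7 of 37, 18.9%, beside 9.04% of all genes. That share was 19.4% for complex I subunits and 16.7% for the mitochondrially encoded ones. It was 9.09% for the other mitochondrial proteins, 5.56% for regulators and 0.0% for other subunits and isoforms. Other subunits and tissue-restricted isoforms had a median of -0.18 over 8 genes tested, from -0.24 for Higd1a to -0.01 for Atpif1, the inhibitor of ATP synthase, and of -0.08 without the libraries numbered 3. Regulators of these genes had a median of -0.04 over 18 genes, from -0.22 for Tfb2m to 0.30 for Ppara. Among 22 other mitochondrial proteins, enzymes of the citric acid cycle, carriers and membrane proteins, the median was -0.05, with 13 below 0 and 9 above, from -0.29 for Chchd3 to 0.21 for Ogdh. That list turned round without the libraries numbered 3, to a median of 0.06 with 6 below 0 and 16 above. There 1 of its genes, Vdac1, passed, at 0.29, beside 4.0% of all genes.

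**Figure D5:**
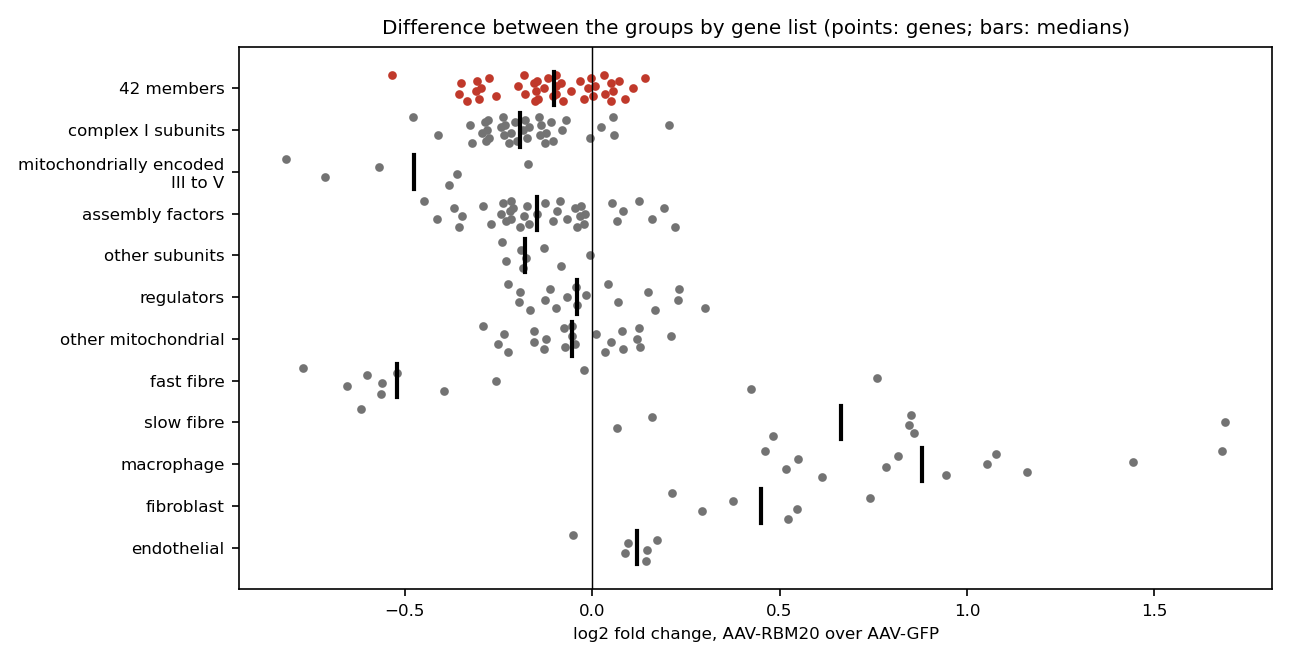
Log2 fold change of AAV-RBM20 over AAV-GFP (horizontal axis) for the tested genes of each list (rows), one point per gene, with the median as a black bar. The median is -0.10 for the 42 members, -0.19 for complex I subunits, -0.52 for fast-fibre and 0.88 for macrophage markers.

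Markers of fibre type and of other cells were read on the same samples. All 12 macrophage markers were above 0, with a median log2 fold change of 0.88 and summed levels of 32.3 to 117 CPM with AAV-GFP and 74.5 to 173 CPM with AAV-RBM20. Without the libraries numbered 3 the median was 1.19 and 9 of the 12 passed, in a fit where 690 of 17250 genes, 4.0%, passed. With the replicate block 1 of the 12 passed, beside 25 of 17222 genes, 0.145%. All 6 fibroblast markers were above 0, with a median of 0.45, or 0.76 without the libraries numbered 3, where 5 passed, and summed to 622 to 1289 CPM against 1035 to 1402 CPM. Fast-fibre genes had a median of -0.52, with 9 of 11 below 0 and summed levels of 107094 to 114970 CPM against 69307 to 104519 CPM, which did not overlap. Without the libraries numbered 3 the median was -0.20, with 7 of 11 below 0 and 3 past the threshold, Tnnc2, Tnni2 and Tnnt3, all lower. Slow-fibre genes had a median of 0.66, with 7 of 8 above 0, at summed levels of only 58.7 to 111 CPM against 99.2 to 157 CPM, and without the libraries numbered 3 of 0.30, with 5 of 8 above 0. Endothelial markers had a median of 0.12 over 6 genes, -0.02 without the libraries numbered 3, and sums that overlapped, of 178 to 440 CPM against 278 to 407 CPM. Of 7 adipocyte markers, 4 were tested, all below 0, with sums of 0.295 to 14.4 CPM against 0.935 to 8.65 CPM, and of 6 erythroid markers 3 were tested, 2 of them above 0, with sums of 4.26 to 11.1 CPM against 2.71 to 28.3 CPM. The 2 erythroid markers still tested without the libraries numbered 3 were both below 0. Fast-fibre genes were far above slow-fibre genes in every library, and the part of cell or fibre composition in the members' values was not tested.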

How the data were processed

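RNA-seq libraries from 6 TA samples were analysed. Per the study's methods, the authors mapped paired reads from a stranded, ribosomal RNA-depleted library with HISAT2 (mm10), and HTSeq counted them per gene. Versions, annotation release and strand setting are not given in the sources used here. The deposited counts are raw whole numbers. A second deposited table, a signal obtained by the authors as count over DESeq2 size factor, was used only to check that 1 factor per library had been applied. Symbols and positions came from GENCODE M21 (GRCm38), which names 55141 of 55401 identifiers, and promoters from RefSeq (GRCm38.p6).

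Groups were taken from the labels. Counts were tested with edgeR 4.0.16 (robust quasi-likelihood, TMM, filterByExpr, no covariate) in R 4.3.3 over 17222 genes, with Benjamini-Hochberg adjustment at 0.05. Log2 CPM for ratios used a prior count of 2. Totals of 41400132 to 54226618 counts keep counting error small for all but the lowest members. Alternatives were DESeq2 1.42.0, limma-voom (limma 3.58.1), other normalisations and filters, a replicate block, libraries left out, and Ttn, Rbm20, ribosomal and mitochondrial RNA left out of the counts. Scripts were tested on simulated data. The numbers in the titles were taken to pair the samples because deviations from group means correlated across genes at 0.418, 0.201 and 0.484 for numbers 1, 2 and 3, although AAV-GFP replicate 2 correlated at 0.216 with AAV-RBM20 replicate 1. No label explains the numbers. Replicates of a group differed beyond sampling noise (chi-square per degree of freedom 15.1 or more), so none was counted as a copy. Length is that of 1 principal transcript per gene, and shared stretches were found by exact matches of 50 bases to all GENCODE transcripts.

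The members and gene lists were chosen with earlier results of these data known. Named genes were Rbm20, the highest and lowest fold change and the highest level per kilobase in each complex, Cycs, the isoform pairs, members past a threshold and the extremes of each list. Others were named after their values were seen.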

Additional observations from a re-analysis of the deposited data

How the results depend on the processing

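The count of members past the adjusted threshold was 0 in every setting except without both libraries numbered 3, and so ranged from 0 to 1 when libraries were left out (Cox6a2, log2 fold change -0.37). The count over all genes was 8 without a low-count filter, 25 with the replicate block and 72 with DESeq2, and ranged from 0 to 690 when libraries were left out. The 2 members at an unadjusted p below 0.05 became 1 with upper quartile factors, beside 504 of 17222 genes lower. They became 9 with the replicate block, and ranged from 0, without AAV-RBM20 replicate 1, to 13, without both libraries numbered 3. Upper quartile factors moved the median of all genes to 0.05 and that of the members to -0.06. The block also brought Rbm20, mt-Co2 and 1 macrophage marker past the threshold, and changed no call of a member. All ratios of isoforms moved by less than 1 SD between replicates, taking the larger SD of the 2 groups. Some moved by more than the smaller SD. When libraries were left out Cox8a over Cox8b ranged from 0.22 to 0.42, beside SDs of 0.085 with AAV-GFP and 0.21 with AAV-RBM20. Cox7a2 over Cox7a1 (-0.09 to 0.08), Cox4i2 over Cox4i1 (-0.14 to 0.025) and Atp5g2 over Atp5g3 (-0.26 to 0.013) changed sign.

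Of 21 named members, 14 kept their sign in all 15 settings and 7 did not. Cox6a1 was at 0.043 with upper quartile factors and 0.024 with the CPM filter. Cox7a1 was at -0.00213 with DESeq2 size factors, -0.00818 without a filter and -0.015 with DESeq2. Cox7a2 was at 0.028 with upper quartile factors and 0.00881 with the CPM filter. When libraries were left out, the range was -0.00423 to 0.12 for Sdhb, -0.14 to 0.069 for Sdhd, -0.18 to 0.10 for Cox6a1, -0.10 to 0.11 for Cox7a1, -0.14 to 0.20 for Cox7a2, -0.011 to 0.17 for Cox8a and -0.26 to 0.054 for Atp5g2. The cause was not tested. Depth limits Cox6a1, Cox8a and Atp5k most, the members with the fewest counts.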
